A study of Mus musculus with 8 samples.

Results

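Endothelial-mesenchymal transition (EndMT) genes were followed in lung endothelial cells (ECs) of neonatal mice reared in normoxia or hyperoxia. The set held 10 genes picked by symbol: the transcription factors Snai1, Snai2, Twist1, Twist2, Zeb1 and Zeb2, and the mesenchymal genes Vim, Fn1, S100a4 and Cdh2. They were 10 of the 54532 genes in the count table. All 10 had at least 1 count, 7 were abundant enough to be tested, and 3 (Twist1, Twist2 and S100a4) were not. Fn1 and Cdh2 rose about 2-fold in hyperoxia and Zeb2 fell, whereas Snai1, Snai2, Zeb1 and Vim did not pass the test.

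The libraries came from wild-type pups kept in room air (21% O2, 4 libraries) or in 80% O2 (4 libraries) from the day of birth to day 14. Per the study's methods, lung cells were depleted of CD45-positive leukocytes and then captured on beads against CD31, a surface protein of ECs. No library came from a mutant animal or a drug-treated group, and other lung cells that pass the beads are sequenced with the ECs. Sample labels did not say which pups went into which library, so the p-values measure the spread between these libraries, which may be in part technical. Libraries held 16098086 to 18300730 counts. The EC label was checked on Cdh5, encoding VE-cadherin, which had a mean of 4121 CPM in the normoxia libraries and of 4035 CPM in the hyperoxia libraries, and on Ptprc, encoding CD45, which had 38.4 and 38.3 CPM. CPM are counts scaled to a common normalised library size. These genes do not show that both groups held the same mix of cells. Sftpc, of alveolar type II cells, went from 106 to 1121 CPM.

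EndMT is a change of state in which ECs loosen their junctions, lose part of the endothelial program and take up matrix, contractile and motility genes. TGF-β, Notch and Wnt signals can start it. SNAIL and ZEB proteins are zinc-finger factors and TWIST proteins are basic helix-loop-helix factors. They bind E-box motifs in DNA, and SNAIL and ZEB proteins are best known as repressors of junction genes such as Cdh1. Vimentin, fibronectin, N-cadherin (Cdh2) and the calcium-binding protein S100A4 are read as signs of a mesenchymal state. ECs are of mesodermal origin and carry vimentin as their usual intermediate filament, so its presence alone does not mark a transition.

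SNAIL-family genes can be bound by their own products, and so the promoter windows of the transcription factors were searched for the SNAIL and ZEB E-box, CAGGTG or its reverse complement CACCTG. RefSeq windows, 250 bases before to 50 bases after a start in build GRCm38.p6, were found for 6 of the 10 genes. Of these, 3 are printed to show a tested factor that holds the motif, a factor that fell in hyperoxia, and a factor that was near 0 in all libraries. The E-box is in capitals and each window is read on the strand of its gene.
Snai1, chr2:167537945-167538244, plus strand: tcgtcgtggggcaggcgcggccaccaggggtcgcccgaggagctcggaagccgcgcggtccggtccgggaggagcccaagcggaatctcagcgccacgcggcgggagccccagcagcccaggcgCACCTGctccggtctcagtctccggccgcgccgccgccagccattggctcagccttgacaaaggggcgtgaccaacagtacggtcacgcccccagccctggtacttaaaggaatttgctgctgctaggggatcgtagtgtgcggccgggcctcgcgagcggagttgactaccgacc
Zeb2, chr2:45117393-45117692, minus strand: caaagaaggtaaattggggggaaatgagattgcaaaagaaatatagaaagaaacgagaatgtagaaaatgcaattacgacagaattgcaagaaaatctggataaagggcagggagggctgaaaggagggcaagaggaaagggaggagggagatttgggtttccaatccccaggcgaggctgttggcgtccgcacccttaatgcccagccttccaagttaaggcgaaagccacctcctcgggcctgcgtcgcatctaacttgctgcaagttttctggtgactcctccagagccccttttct
Twist1, chr12:33957421-33957720, plus strand: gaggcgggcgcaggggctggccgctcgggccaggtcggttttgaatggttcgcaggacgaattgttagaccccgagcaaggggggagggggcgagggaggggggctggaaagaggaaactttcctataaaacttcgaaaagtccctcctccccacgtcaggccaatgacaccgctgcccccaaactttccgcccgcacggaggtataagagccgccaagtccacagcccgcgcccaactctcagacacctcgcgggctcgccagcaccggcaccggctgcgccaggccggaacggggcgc
Snai1's window held 1 such E-box, with its first base at position -126 from the start, and no other member's window held any. Of 32851 mouse promoter windows of the same length, 20.2% held it on either strand. The windows differed in base composition, with 34 CpG dinucleotides in that of Snai1, 27 in that of Twist1 and 9 in the printed window of Zeb2. RefSeq lists 3 further starts of Zeb2, whose windows held 8, 8 and 19 CpG dinucleotides. These letters describe the windows and do not show that any factor was bound.

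Beside the members, 5535 of the 15564 genes tested (35.6%) passed the test at a Benjamini-Hochberg adjusted p under 0.05 in edgeR's quasi-likelihood test, 18.5% of the genes higher and 17.1% lower in hyperoxia. Among the 7 members tested, 3 passed (42.9%), 2 higher and 1 lower, which is near the share over all genes. Both risers changed at least 2-fold. Such a change was found for 6.98% of all genes tested, 5.62% higher and 1.36% lower. The median log2 fold change of the 7 was 0.02, and that of all genes tested was -0.004. Groups did not overlap in CPM for 4 of the 7 members, and for 35.4% of all genes tested. The direction of a change is given throughout as hyperoxia relative to normoxia, with standard errors (SE) of the log2 fold change.

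**Figure D1:**
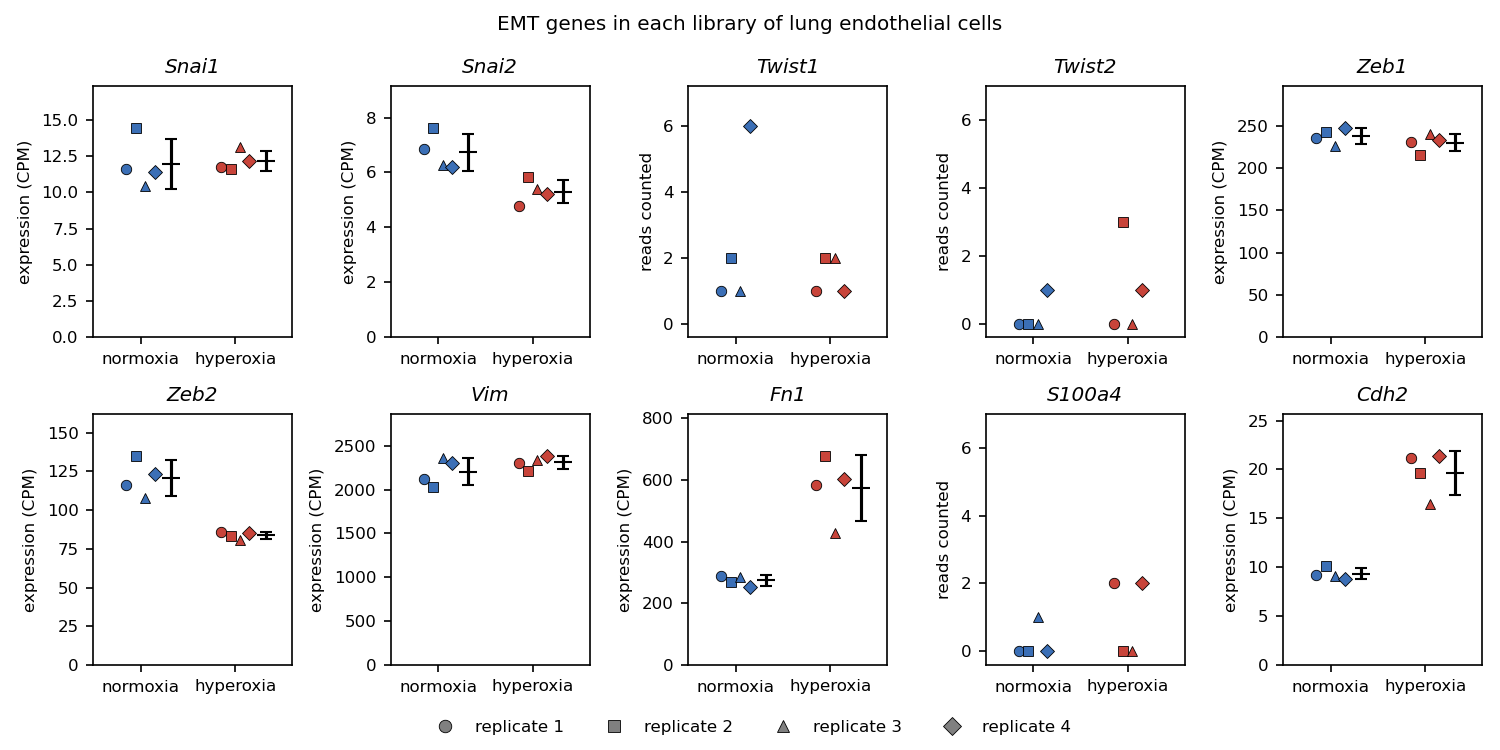
Expression of the 10 genes in each library, in CPM for the 7 tested and in raw counts for Twist1, Twist2 and S100a4, with a symbol for each replicate and, for the CPM, the mean ± SD beside the points. The 4 hyperoxia libraries of Fn1 (426 to 679 CPM) and of Cdh2 (16.5 to 21.4 CPM) sit above all normoxia libraries, those of Zeb2 (80.9 to 85.8 CPM) sit below, and the Vim and Zeb1 groups overlap.

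Among the transcription factors, Zeb2 fell. Zeb2 (ENSMUSG00000026872, chromosome 2, 44983632 to 45117395, minus strand, GRCm38) encodes a zinc-finger homeobox repressor that also binds SMAD proteins. It stood at 116, 135, 108 and 123 CPM in normoxia 1 to 4, and at 85.8, 83.1, 80.9 and 85.4 CPM in hyperoxia 1 to 4. The lowest normoxia library lay above the highest hyperoxia library. Its mean dropped from 121 ± 11.6 to 83.8 ± 2.23 CPM (SD, n = 4 each), a log2 fold change of -0.53 (SE 0.0655, edgeR adjusted p = 0.000143). An opposite-strand transcript, Zeb2os, covers 3.27% of its exon bases and had 68 counts over the 8 libraries, against 14358 for Zeb2. In a bulk isolate such as this, fewer cells of a type and less RNA per cell cannot be told apart.

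Its paralogue Zeb1 (ENSMUSG00000024238, chromosome 18, 5591860 to 5775467, plus strand) did not follow. Zeb1 was at 236, 242, 226 and 247 CPM in normoxia and at 231, 216, 240 and 233 CPM in hyperoxia, with overlapping groups. Means were 238 ± 9.31 and 230 ± 10.3 CPM, and the log2 fold change was -0.05, with a nominal 95% interval from -0.17 to 0.07 (SE 0.0485, edgeR adjusted p = 0.475). Counts of Zeb2 per count of Zeb1, a ratio chosen after the values were seen, averaged 0.507 ± 0.0356 under normoxia and 0.365 ± 0.0205 under hyperoxia (SD over 4 libraries each), and the ranges did not overlap.

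Neither SNAIL gene passed the test. Snai1 (ENSMUSG00000042821, chromosome 2, 167538195 to 167542814, plus strand) encodes SNAIL, an early-acting repressor of cadherin genes. Snai1 had 11.6, 14.5, 10.4 and 11.4 CPM in normoxia and 11.8, 11.6, 13.2 and 12.1 CPM in hyperoxia, so the normoxia libraries spanned all hyperoxia libraries. Its log2 fold change was 0.02 with a nominal 95% interval from -0.25 to 0.30 (edgeR adjusted p = 0.887), and its sign turned when normoxia 3, normoxia 4 or hyperoxia 3 was left out.

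Snai2 (ENSMUSG00000022676, chromosome 16, 14705852 to 14709385, plus strand), which encodes SLUG, lay just outside the threshold. It was at 6.86, 7.62, 6.27 and 6.19 CPM in normoxia and at 4.80, 5.83, 5.38 and 5.21 CPM in hyperoxia. No hyperoxia library reached the lowest normoxia library, which also held for 35.4% of all genes tested in either direction. The log2 fold change was -0.34 (SE 0.124, edgeR adjusted p = 0.0525). Snai2 passed only when genes were kept at 1 CPM or more in 4 libraries (edgeR adjusted p = 0.0485), and over all 18 alternatives its adjusted p ran from 0.0485 to 0.813.

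Twist1 and Twist2, which encode closely related helix-loop-helix factors, were near 0. Twist1 (ENSMUSG00000035799, chromosome 12, 33957671 to 33959829, plus strand) had 1, 2, 1 and 6 counts in normoxia and 1, 2, 2 and 1 in hyperoxia. Twist2 (ENSMUSG00000007805, chromosome 1, 91801461 to 91848028, plus strand) had 0, 0, 0 and 1 counts in normoxia and 0, 3, 0 and 1 in hyperoxia. Neither gene reached the minimum count of the filter, and no change could be detected at this depth. The 16 Twist1 counts correspond to 0.114 CPM over both groups, with an exact Poisson 95% upper bound of 0.185 CPM. The 5 Twist2 counts correspond to 0.0356 CPM, with an upper bound of 0.0830 CPM. Those bounds cover counting error only. An opposite-strand transcript, Gm29100, overlaps 46.5% of the Twist2 exon bases and had 2 counts itself.

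Among the mesenchymal genes, Fn1 and Cdh2 rose. Fn1 (ENSMUSG00000026193, chromosome 1, 71585520 to 71653200, minus strand) encodes fibronectin, a matrix glycoprotein made by ECs, fibroblasts and other cells that binds integrins. Fn1 was at 290, 268, 287 and 253 CPM in normoxia and at 585, 679, 426 and 604 CPM in hyperoxia. Hyperoxia 3 was the lowest of the exposed libraries and still lay above every normoxia library. Fn1 went from 274 ± 17.2 to 574 ± 106 CPM (SD, n = 4 each), a 2.09-fold rise (log2 fold change 1.06, SE 0.118, edgeR adjusted p = 6.48e-05). Without hyperoxia 3 the log2 fold change was 1.18.

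Cdh2 (ENSMUSG00000024304, chromosome 18, 16588877 to 16809246, minus strand) encodes N-cadherin, the adhesion protein of many mesenchymal cells, which ECs use in contacts with pericytes. Cdh2 was at 9.25, 10.1, 9.12 and 8.78 CPM in normoxia and at 21.1, 19.6, 16.5 and 21.4 CPM in hyperoxia. Again hyperoxia 3 was the lowest exposed library, and the groups did not overlap. The mean rose 2.11-fold, from 9.32 ± 0.574 to 19.7 ± 2.26 CPM (SD, n = 4 each, log2 fold change 1.08, SE 0.102, edgeR adjusted p = 2.18e-05). Cdh5 did not pass the test (log2 fold change -0.03, edgeR adjusted p = 0.658).

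Vim (ENSMUSG00000026728, chromosome 2, 13573927 to 13582826, plus strand) was the most abundant member. Vim was at 2122, 2025, 2364 and 2299 CPM in normoxia and at 2297, 2214, 2341 and 2387 CPM in hyperoxia, and the groups overlapped. The log2 fold change was 0.07, with a nominal 95% interval from -0.07 to 0.21 (SE 0.0564, edgeR adjusted p = 0.378). A 2-fold change like that of Fn1 lies outside this interval.

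S100a4 (ENSMUSG00000001020, chromosome 3, 90603771 to 90606045, plus strand), also known as fibroblast-specific protein, had 0, 0, 1 and 0 counts in normoxia and 2, 0, 0 and 2 in hyperoxia. These 5 counts give 0.0356 CPM with an exact Poisson 95% upper bound of 0.0830 CPM. However, the annotation lists another gene on the same strand, Gm42674, that shares 302 bases, or 51.7%, of the S100a4 exon bases and had 0 counts in all 8 libraries. Along its spliced transcript of 498 bases, bases 37 to 338 are shared, and 36 bases before and 160 after them are not. How reads in shared bases were assigned is not given in the sources used here, so the counts near 0 cannot be read as a lack of S100a4 transcripts. S100a6, of the same gene family and chosen after the values were seen, rose from 7.20 to 22.5 CPM (log2 fold change 1.64, edgeR adjusted p = 0.000118).

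Levels can be set against each other only per gene length, for which the deposited FPKM (fragments scaled to gene length and library total) were used. In normoxia Vim led with 461 FPKM. Fn1 at 23.3 ± 1.498 and Zeb1 at 23.0 ± 0.872 FPKM followed and did not differ beyond their spread. Snai1 at 7.32 ± 1.03 and Zeb2 at 5.999 ± 0.555 FPKM came next, with overlapping SDs, before Snai2 at 3.30 and Cdh2 at 1.15 FPKM. Twist1 (0.0857), S100a4 (0.0238) and Twist2 (0.00432) closed the order, with spreads as large as or close to their means. In hyperoxia Fn1 at 48.8 FPKM stood clear of Zeb1 at 22.3 FPKM, while Cdh2 at 2.42 ± 0.273 reached the level of Snai2 at 2.61 ± 0.218 FPKM. For scale, Cdh5 was at 972 and 955 FPKM, so Cdh2 remained far below the endothelial cadherin in both groups.

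The other genes of the pathway were read from lists written from general knowledge with earlier results of these data known. Of 34 further EMT and EndMT regulators, 30 were tested, 8 rose and 9 fell (17 of 30, 56.7%), against 35.6% over all genes, with a median log2 fold change of -0.05. The ligand Tgfb2 rose from 17.3 ± 1.69 to 50.02 ± 4.76 CPM (log2 fold change 1.53, edgeR adjusted p = 9.18e-07). Eng, the TGF-β co-receptor endoglin and the gene with the most counts in this list, rose from 1644 to 2222 CPM (log2 fold change 0.43). Its partner receptor Acvrl1 did not pass, at 1679 and 1624 CPM, nor did Ctnnb1 (β-catenin, 1167 and 1207 CPM) or Notch1 (784 and 668 CPM). Hey1, a target gene of Notch signalling, fell from 274 to 158 CPM (-0.80 on the log2 scale), and Id3, a target of BMP signalling, fell from 329 to 199 CPM (-0.72).

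Members of the TGF-β and BMP branches moved in both directions. Chosen after their values were seen, Tgfb3 (log2 fold change 1.40), the receptor Tgfbr2 (0.34) and the signal transducer Smad3 (1.04) rose, while the transducers Smad4 (-0.34) and Smad7 (-0.24, an inhibitor), and Id1 (-0.19) and Id2 (-0.52) fell. Tgfb1, at 209 and 223 CPM, did not pass. The largest rise in the list was of Esrp1, an epithelial splicing factor used as a marker of the epithelial state, from 0.178 to 2.06 CPM (log2 fold change 3.52).

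Of 32 further mesenchymal genes, 30 were tested, 21 rose and 1 fell (22 of 30, 73.3%), against 35.6% over all genes. Their median log2 fold change was 0.65. Rises of at least 2-fold were found for 12 of the 30, against 5.62% of all genes tested. Acta2, smooth muscle actin, rose from 2.57 ± 1.08 to 10.7 ± 2.63 CPM (log2 fold change 2.06). Sparc, a matrix glycoprotein abundant in ECs, rose from 2597 to 3621 CPM (0.48), and the fibrillar collagen gene Col5a2 from 333 to 428 CPM (0.36). The fibronectin receptor genes split: the β1 integrin gene Itgb1 rose from 1616 to 2000 CPM (0.31), while Itga5, its partner in the main fibronectin receptor, fell from 432 to 376 CPM (-0.20, edgeR adjusted p = 0.0234). Itga5 was the only gene of this list that fell in edgeR. At an unadjusted p under 0.05 in edgeR 2 were lower, and at an adjusted p under 0.05, 2 in DESeq2 and 1 in limma-voom.

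Endothelial identity genes, which EndMT would lower, split evenly. All 18 were tested, 5 rose, 5 fell and 8 did not pass, with a median log2 fold change of 0.02. Besides Cdh5, Pecam1 (CD31, 2902 and 2822 CPM) and Vwf (2071 and 2428 CPM) did not pass, while the tight junction gene Cldn5 rose from 2066 to 2408 CPM (log2 fold change 0.22, edgeR adjusted p = 0.00643). Tek, the angiopoietin receptor, named after its value was seen, fell from 1182 to 682 CPM (-0.79). Also named after their values were seen, Sox17 (-0.48), Ets1 (-0.46), Erg (-0.25) and Tie1 (-0.18) fell. Emcn (0.42), Fli1 (0.41), Robo4 (0.28) and Kdr (0.18) rose.

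Epithelial adhesion genes, some of which the SNAIL and ZEB factors repress in EMT, were mostly higher in hyperoxia. Repression by these factors was not tested. Of 16 listed, 13 were tested, 11 rose and 0 fell, against 18.5% higher and 17.1% lower over all genes. Their median log2 fold change was 2.79. At an unadjusted p under 0.05 in edgeR, and at an adjusted p under 0.05 in DESeq2 and in limma-voom, again 0 of them were lower. Ocln, at 70.0 and 74.5 CPM, did not pass. Cdh1, E-cadherin, went from 2.40 to 23.2 CPM (3.28) and the keratin gene Krt8 from 0.641 to 8.16 CPM (3.67). Jup, plakoglobin, which ECs also carry, rose from 1189 to 1323 CPM (0.15). In the same libraries 14 of 16 lung epithelial markers tested rose, and Sftpc, of alveolar type II cells, went from 106 to 1121 CPM. Which cells the epithelial adhesion transcripts came from was not tested.

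**Figure D2:**
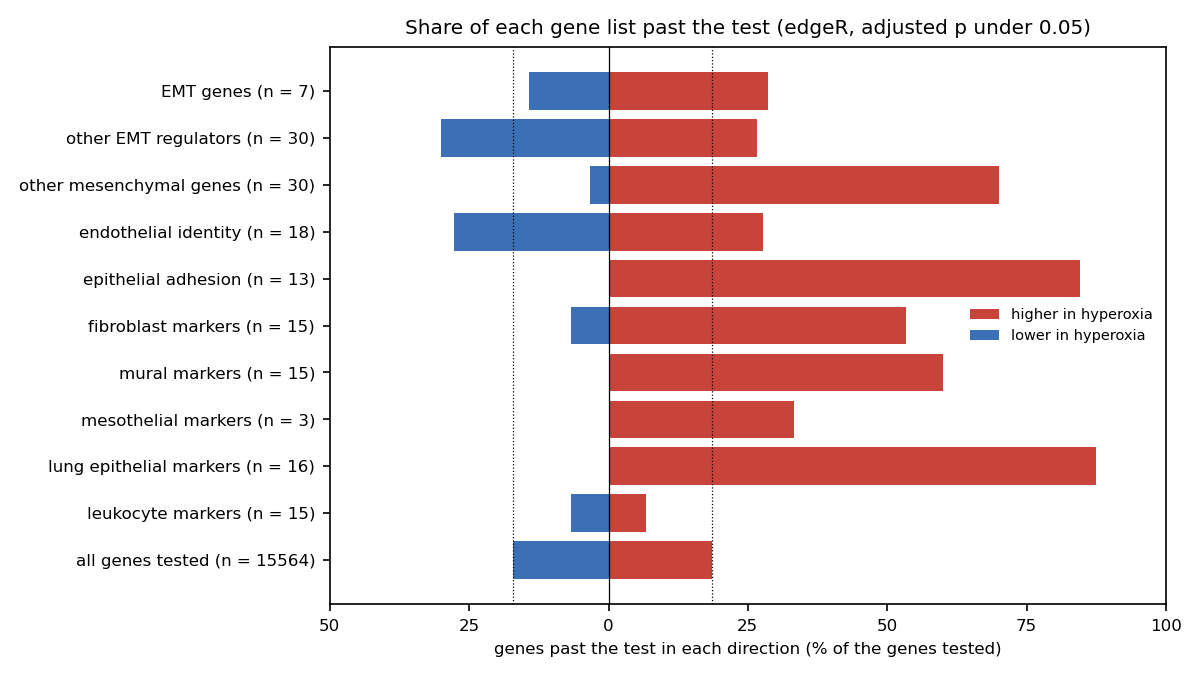
Genes of each list higher (red, right) or lower (blue, left) in hyperoxia at an edgeR adjusted p under 0.05, in percent of the genes tested, with the shares over all 15564 genes as dotted lines (18.5% higher, 17.1% lower). The bars of the other mesenchymal genes (21 rose, 1 fell) and of the epithelial markers (14 rose, 0 fell) lie mostly on the right, while those of the regulators (8 and 9) and of endothelial identity (5 and 5) lie on both sides.

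Fn1 and Cdh2 are also expressed outside ECs, so markers of other lung cells were read beside them. The shares over all genes tested were 18.5% higher and 17.1% lower. Of 15 fibroblast markers tested, 8 rose and 1 fell (median log2 fold change 0.88), and their summed level was 287 to 528 CPM in normoxia and 373 to 858 CPM in hyperoxia. Of 15 mural markers (pericytes, smooth muscle and myofibroblasts), 9 rose and 0 fell (median 1.04), with sums of 54.7 to 97.5 and of 115 to 209 CPM. The count of lower mural or epithelial markers was 0 in edgeR, also at an unadjusted p under 0.05, and 0 in DESeq2 and limma-voom. Among the marker lists, the epithelial markers had the largest median. Of 16 tested, 14 rose and 0 fell (median 2.83), and their sum went from 308 to 421 CPM to 885 to 2628 CPM. Mesothelial markers summed to 2.43 to 5.94 and 4.98 to 9.40 CPM (1 of 3 tested rose), and leukocyte markers to 233 to 522 and 307 to 727 CPM (1 of 15 rose and 1 fell). Several collagen and contractile genes stand both in the fibroblast or mural lists and among the further mesenchymal genes. Cdh1 and Epcam stand both among the epithelial markers and the epithelial adhesion genes, and Esrp1 and Ovol1 among the latter and the regulators. These counts are therefore not separate evidence.

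Fibroblast and mural markers were mostly higher in hyperoxia, with 1 fibroblast marker lower, but not all of them passed the test. Pdgfra, a defining fibroblast marker, was at 3.08 ± 0.911 and 4.71 ± 1.35 CPM and did not pass (edgeR adjusted p = 0.0862). Pdgfrb, of pericytes, rose from 9.72 ± 4.35 to 19.9 ± 8.68 CPM (adjusted p = 0.0386 in edgeR), and Rgs5 from 28.7 to 61.8 CPM (log2 fold change 1.11). Col3a1 rose from 78.7 to 140 CPM (0.83) and Col1a2 from 41.0 to 91.1 CPM (1.16), whereas Mfap4, at 94.6 and 158 CPM, did not pass. The fibroblast collagen gene Col14a1, named as the only marker of its list that fell, went from 72.0 to 54.3 CPM (-0.41, edgeR adjusted p = 0.00128). The surfactant gene Sftpc of alveolar type II cells rose from 106 to 1121 CPM (3.40). Wt1, the defining mesothelial marker, had 6 counts in all 8 libraries.

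**Figure D3:**
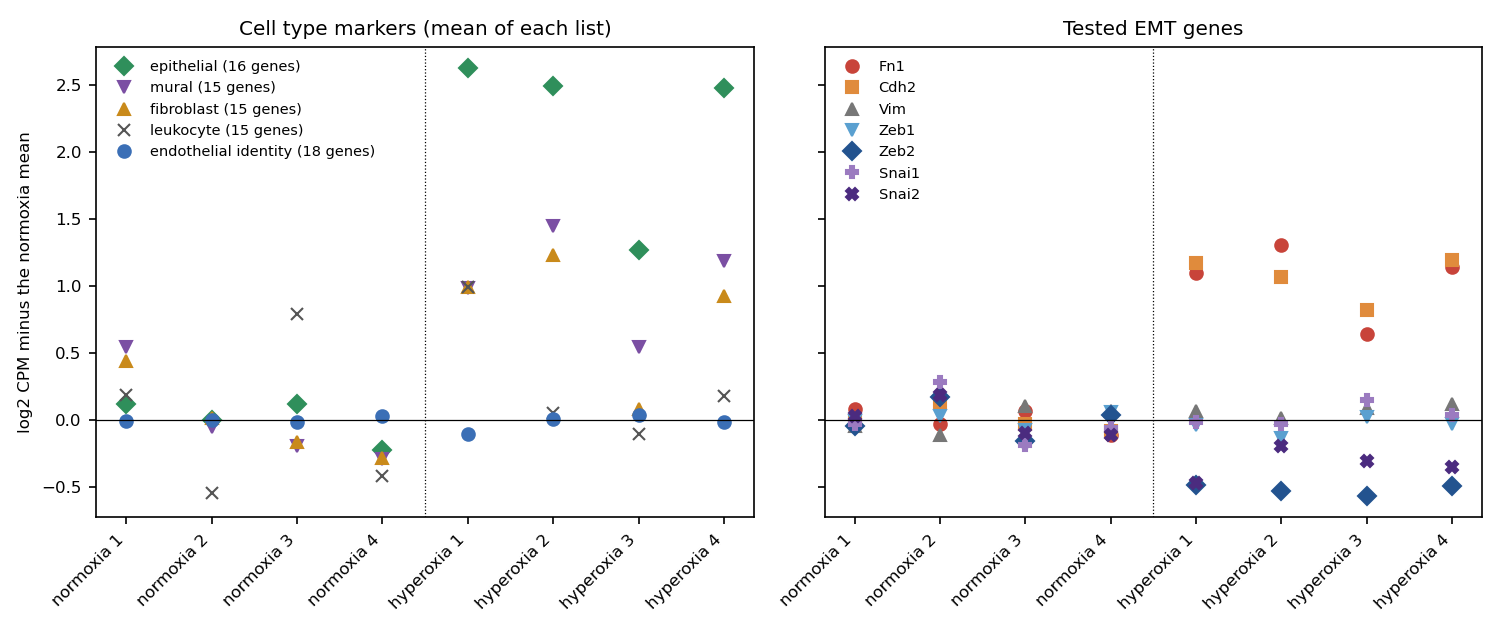
Level in each library minus the normoxia mean, in log2 CPM, of 5 marker lists (left, mean over the genes of each list) and of the 7 tested members (right). In hyperoxia 3 the fibroblast markers lie at 0.08, the mural markers at 0.54 and the epithelial markers at 1.27. In normoxia 1 these lists lie at 0.44, 0.54 and 0.12. Fn1 and Cdh2 in hyperoxia 3 lie above every normoxia library.

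Hyperoxia 3 and normoxia 1, picked after their values were seen, differed in the fibroblast sum against the order of the groups, but not in the mural or epithelial sums. Fibroblast markers summed to 528 CPM in normoxia 1 and to 373 CPM in hyperoxia 3. Fn1 was at 290 and 426 CPM and Cdh2 at 9.25 and 16.5 CPM in these libraries. Mural markers were at 97.5 and 115 CPM, and epithelial markers at 421 and 885 CPM. By the mean log2 CPM of the list, however, the mural level was the same in normoxia 1 and hyperoxia 3, at 1.85. Zeb2, at 116 and 80.9 CPM, also differed as between the groups. This compares 1 library with 1 library and has no replicate check. Without hyperoxia 3, the calls of all members stood. In that fit 13 fibroblast, 11 mural and 14 epithelial markers passed the test, against 9, 9 and 14 with all libraries. Over all genes, 5303 of 15920 passed in that fit, and 5535 of 15564 with all libraries.

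Ratios of counts within a library, chosen after the values were seen, placed the members beside their possible sources. Fn1 per count of Col1a1 was 11.7 ± 2.44 in normoxia and 8.66 ± 2.30 in hyperoxia, and per count of Col3a1 it was 3.75 ± 0.979 and 4.21 ± 0.517 (SD, n = 4 each), with overlap in both cases. Cdh2 per count of Pdgfrb was 1.08 ± 0.353 and 1.13 ± 0.437, also with overlap. Overlap of 4 libraries with 4 does not show equal ratios, and whether Fn1 or Cdh2 rose relative to these stromal genes was not tested. Fn1 per count of Cdh5 was 0.0668 ± 0.00687 and 0.142 ± 0.0268, and Cdh2 per count of Cdh5 was 0.00227 ± 0.000181 and 0.00489 ± 0.000693, both without overlap. Fn1 per count of Sftpc went from 2.72 ± 0.594 to 0.600 ± 0.281, in the other direction and without overlap.

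Adding the mean log2 CPM of a marker list to the model as a covariate gave smaller changes for Fn1 and Cdh2. With the fibroblast covariate both still passed, at log2 fold changes of 0.67 (SE 0.0962, edgeR adjusted p = 0.00125) for Fn1 and 0.88 (SE 0.137, edgeR adjusted p = 0.00202) for Cdh2. With the mural covariate Cdh2 passed at 0.88 (edgeR adjusted p = 0.0236) and Fn1 did not, at 0.57 (SE 0.158, edgeR adjusted p = 0.0573). With the epithelial covariate neither passed, at 0.10 (SE 0.174) for Fn1 and 0.50 (SE 0.238) for Cdh2. Zeb2 kept its size under all 3, at -0.55, -0.53 and -0.58, and passed with the fibroblast and mural covariates, while with the epithelial covariate its SE widened to 0.206 (edgeR adjusted p = 0.267).

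The epithelial markers separated the groups, so that covariate and the oxygen level cannot be told apart in these 8 libraries. In the fibroblast and mural levels the groups overlapped only through normoxia 1 (0.44 and 0.54 above the normoxia mean) and hyperoxia 3 (0.08 and 0.54). Those covariates therefore also move closely with the oxygen level, and passing with them does not separate RNA of other cells from an effect of oxygen. The epithelial covariate left 200 genes past the test in the whole table, against 1125 with the mural, 2409 with the fibroblast and 5535 with no covariate. The further EMT regulators past the test went from 17 to 11, 7 and 1 with the fibroblast, mural and epithelial covariates, and the further mesenchymal genes from 22 to 13, 7 and 1. The part of RNA from other cells in the rise of Fn1 and Cdh2 was not tested beyond these values.

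**Figure D4:**
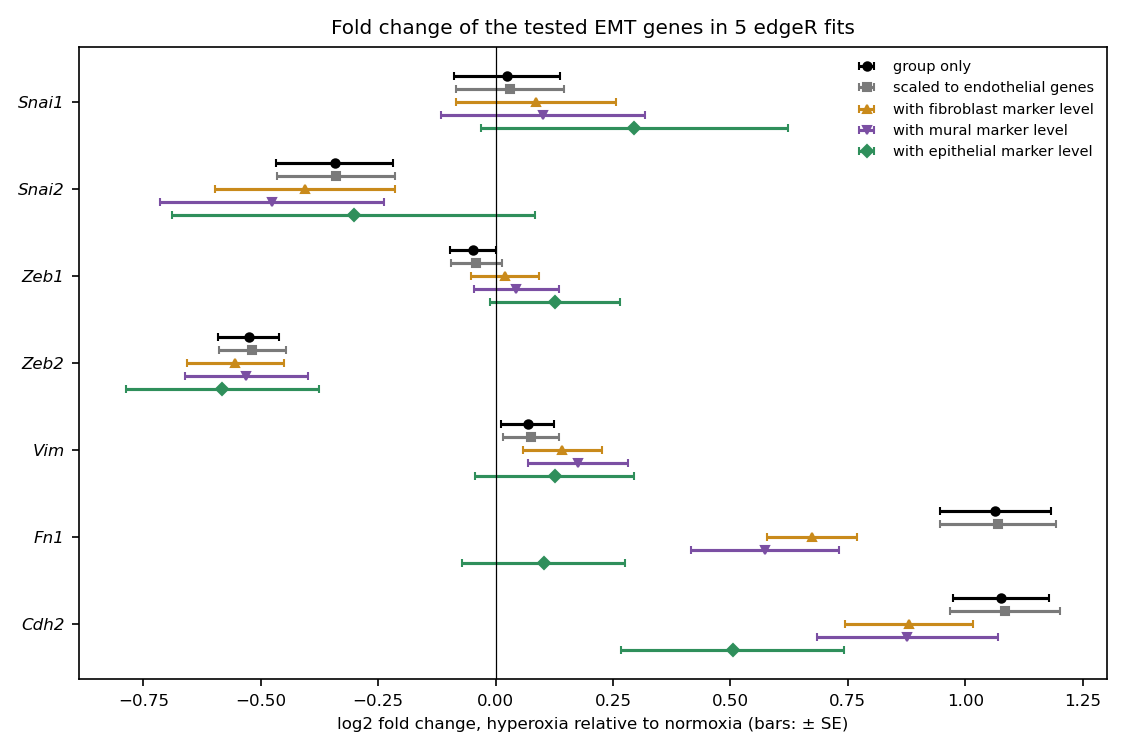
Log2 fold change (hyperoxia relative to normoxia) of the 7 tested members in 5 edgeR models: the group alone, scaling to the endothelial identity genes, and the fibroblast, mural or epithelial marker level as a covariate, with bars of ± SE. Fn1 goes from 1.06 to 0.67, 0.57 and 0.10 and Cdh2 from 1.08 to 0.88, 0.88 and 0.50 under the covariates, while Zeb2 stays between -0.58 and -0.52.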

How the data were processed

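The authors deposited raw gene counts and FPKM for the same 54532 genes and 8 libraries of lung ECs. The submitters' processing notes name HISAT2 2.0.5, featureCounts 1.5.0-p3 and build mm10. How reads in overlapping genes and on either strand were counted is not given in the sources used here. FPKM, which the authors computed, equalled counts divided by gene length and library total, up to 1 factor per library, within a relative deviation of 1.15e-08 in the 12590 genes checked (more than 20 counts in each library), and they were used only to compare levels between genes. Coordinates are those of the deposited table, in GRCm38, and matched GENCODE M21 for all 10 genes. The labels name an RNeasy kit for RNA and a SMARTER mRNA-Seq kit for the libraries, whereas the methods name TRIzol for RNA.

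Groups were taken from the sample titles. Counts were tested with edgeR 4.0.16 (R 4.3.3): TMM normalisation, filterByExpr, the quasi-likelihood test with the group as the only term, and Benjamini-Hochberg adjustment over 15564 genes. SEs follow from the F statistic, and the nominal intervals use 6 residual degrees of freedom. A gene rose or fell at an adjusted p under 0.05. Log2 CPM in covariates used a prior count of 2. Alternatives were RLE factors, scaling to endothelial genes, other filters, DESeq2 1.42.0, limma-voom (limma 3.58.1), a replicate block, marker covariates, a minimum 2-fold change and leaving out each library. The test was run first on simulated counts. Intervals from counts cover counting error only.

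The members and lists were chosen with earlier results of these data known. Besides the members and Pdgfra, Pdgfrb, Ptprc and Wt1, the rule allowed naming the 4 most abundant tested genes of each list and, among regulators and mesenchymal genes past the test with a mean of at least 1 CPM, the 2 with the largest rise and the 2 with the largest fall. Other genes named were chosen after their values were seen. Not every gene the rule allowed is reported here. Ccn1 and Ccn2 were matched to the file's older symbols through RefSeq synonyms.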

Additional observations from a re-analysis of the deposited data

Results flagged for a closer look

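In 3 of 38 groups of 4 libraries examined, 1 library stood apart from the other 3 by Dixon's criterion, where chance gives about 1 in 20, or 1.9. Twist2 had 1 count in normoxia 4 and 0 in the other normoxia libraries. S100a4 had 1 count in normoxia 3 and 0 in the other normoxia libraries. Both are a single count in a gene near 0. The further EMT regulators summed to 7998 CPM in hyperoxia 1 and to 8344 to 8389 CPM in the other 3 hyperoxia libraries, while the normoxia libraries lay between 7771 and 8233 CPM.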

How the results depend on the processing

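Of the 3 members past the test, 0 passed with the epithelial covariate. The 2 risers became 1 with the mural covariate and 0 with the epithelial covariate. The 1 member that fell became 2 with the filter at 1 CPM in 4 libraries (Snai2, log2 fold change -0.34), 0 with the epithelial covariate and 0 with a minimum 2-fold change. Covariates, in the order fibroblast, mural and epithelial, left 11, 7 and 1 of the 17 regulators and 13, 7 and 1 of the 22 further mesenchymal genes, which was added after seeing the data. Zeb1 turned to a log2 fold change of 0.0201, 0.0442 and 0.126 under these covariates. Snai1 turned to -0.0390 without normoxia 3, -0.00093 without normoxia 4 and -0.0154 without hyperoxia 3, with a range from -0.0390 to 0.125 over the libraries left out, none of them past the test. The covariates rest on markers that move with the groups, and the cause of these changes was not tested. Of all genes past the test, 51.9% were higher in the main model, 84.5% with the epithelial and 60.5% with the mural covariate.

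Leaving out each library in turn, the log2 fold change ranged from 0.97 to 1.18 for Fn1, 1.03 to 1.151 for Cdh2 and -0.58 to -0.47 for Zeb2, and 3 members passed each time. The same replicate numbers did not pair the libraries (correlations of deviations 0.119, 0.0361, -0.125 and -0.140); with the replicate number as a block 3 members passed and the calls over all genes went from 5535 to 4792. Twist1, Twist2 and S100a4 were too low to be tested at this depth.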
